A study of Mus musculus with 71 samples.

Results

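The 4 bead-array probes described here read the transcripts of Fcrls, Wfdc18, Cfl1 and Acat1 in mouse cerebellum, and they were chosen for moving the same way under caloric restriction in both genotypes of the study. Of 14883 probes that passed the filter on dim probes in the diet arm, 13 had an adjusted p under 0.05 (limma, Benjamini-Hochberg) for restricted against standard diet in Csb mice, and all 13 had the same sign in wild type. The 4 probes are the 2 of these that were higher under restriction (Cfl1 and Acat1) and, of the 11 that were lower, the 2 with the largest decrease (Wfdc18 and Fcrls). The table holds 25697 probes in all. Since the choice used the restricted and standard-diet arrays, their difference is given below as a description, and tests are confined to the high-fat, resveratrol and injection arrays, which the choice did not use.

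All mice were male, of the C57BL/6 strain, and either wild type (WT) or Csbm/m (Csb here), homozygous for a mutated Csb gene. CSB is a chromatin remodeller of transcription-coupled DNA repair, and its loss causes Cockayne syndrome in humans. The diet arm (42 arrays) compared 4 diets, begun at 4 months of age and kept up for 8 months, with collection at 1 year. The diets were standard AIN-93G chow without limit (SD; 6 Csb and 4 WT arrays), the same chow at 40% caloric restriction (CR; 6 and 4), a diet with 60% of calories from fat (HFD; 7 and 4), and standard chow with 100 mg resveratrol per kg (Resv; 6 and 5). In the injection arm (29 arrays) mice of 4 months (young) or 18 months (old) on house chow received daily nicotinamide riboside, a precursor of NAD+, at 500 mg per kg, or saline, for 1 week. Its Csb groups held 3 young saline, 3 young NR, 3 old saline and 4 old NR arrays, and its WT groups held 4, 4, 3 and 5 in the same order. Nothing in the labels ties each array to its own animal, and p-values therefore reflect only differences among arrays of a group, which may be technical.

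Levels are log2 normalized intensities. A probe counts as detected on an array where its detection p-value, its rank against the negative controls, is under 0.01. Between 46.3% and 58.0% of probes were detected per array. No probe of the annotation used is named Ercc6, the gene of CSB, so the genotype labels were not checked against the mutated gene. The mean of 4 granule cell markers (Gabra6, Neurod1, Zic1, Cbln1), which identify the main neuron of the cerebellum, was between 10.7 and 12.8 on most diet arrays but at most 8.47 on 4 of them. These were Csb SD replicates 1 and 3, WT SD replicate 1 and Csb CR replicate 6, and the restriction differences of the 4 genes and of the lists are given with and without them.

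Fcrls encodes an Fc receptor-like scavenger receptor that, in the mouse brain, is used as a marker of resident microglia. Wfdc18 encodes a small secreted protein with a WAP four-disulfide core domain, a fold shared with protease inhibitors. Cfl1 encodes cofilin 1, which severs and depolymerises actin filaments and so shapes dendritic spines and growth cones. Acat1 encodes the mitochondrial acetyl-CoA acetyltransferase, which takes part in ketone body use and isoleucine breakdown. Food restriction raises circulating ketone bodies and glucocorticoids in rodents.

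The probes were named from GEO's platform annotation, in which 23978 of 25697 probes have 1 gene symbol and the others none. Each of the 4 genes has 1 probe on the array, and all 4 matched RefSeq (GRCm38.p6) as protein-coding genes. Fcrls (probe ILMN_2831436) lies at chr3:87250736-87263765, Wfdc18 (ILMN_1239717) at chr11:83709004-83711360, Cfl1 (ILMN_1213376) at chr19:5490455-5494031 and Acat1 (ILMN_2643977) at chr9:53580522-53610350, so no 2 members are neighbours. Whether a probe also reads a related transcript or pseudogene was not tested. RefSeq's promoter table holds 3 of the 4 genes, and the 250 bases before the start it gives are given here for the pair that was lower under restriction and for Cfl1, which was higher. Capitals mark matches, on either strand, to the TATA box core TATAAA, the CCAAT box, GAGGAA (an ETS core bound by the microglial factor PU.1) and AGAACA (a glucocorticoid receptor half-site).
Fcrls: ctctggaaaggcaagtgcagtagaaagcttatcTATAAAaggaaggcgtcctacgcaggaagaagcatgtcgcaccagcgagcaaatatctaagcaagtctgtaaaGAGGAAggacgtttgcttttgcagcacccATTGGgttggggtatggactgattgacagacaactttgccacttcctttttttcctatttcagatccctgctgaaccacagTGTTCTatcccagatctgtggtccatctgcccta
Wfdc18: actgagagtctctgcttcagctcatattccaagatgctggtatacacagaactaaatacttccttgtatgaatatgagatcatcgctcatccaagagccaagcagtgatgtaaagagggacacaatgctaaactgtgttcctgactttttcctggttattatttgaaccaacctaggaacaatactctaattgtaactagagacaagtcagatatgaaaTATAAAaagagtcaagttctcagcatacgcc
Cfl1: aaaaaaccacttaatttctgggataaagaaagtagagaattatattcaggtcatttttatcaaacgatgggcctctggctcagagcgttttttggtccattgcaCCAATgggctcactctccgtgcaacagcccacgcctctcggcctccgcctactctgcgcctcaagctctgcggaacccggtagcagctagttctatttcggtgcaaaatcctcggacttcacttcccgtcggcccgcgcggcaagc
The Fcrls bases are the minus strand of chr3:87263525-87263774, the Wfdc18 bases the plus strand of chr11:83708754-83709003 and the Cfl1 bases the plus strand of chr19:5490205-5490454, all in GRCm38.p6. The 5′ end of the annotated Fcrls locus lies upstream of the start the table uses, so 241 of its 250 bases lie within the locus. In Wfdc18 the single match is TATAAA, 31 to 26 bases before the start. In Fcrls the matches are TATAAA at 217, GAGGAA at 144, CCAAT on the opposite strand (ATTGG) at 115 and AGAACA on the opposite strand (TGTTCT) at 34 bases before the start. In Cfl1 the single match is CCAAT, 146 bases before the start. Over 32851 promoters of the same length, TATAAA occurs in 12.4%, CCAAT in 33.8%, GAGGAA in 23.3% and AGAACA in 16.1%. No motif is shared by the 2 genes that were lower other than TATAAA, which stands at different distances. The windows hold 2 (Wfdc18), 5 (Fcrls) and 16 (Cfl1) CG dinucleotides, against a median of 6 over all promoters.

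Fcrls was 2.93-fold to 3.23-fold lower under restriction in both genotypes, and no array on another diet was as low as any restricted one. On the Csb SD arrays its level was 7.33 at the lowest, 7.68 at the median and 8.57 at the highest. On the Csb CR arrays the same values were 5.66, 6.40 and 6.64, so the groups do not overlap, as for 0.376% of all kept probes. On the 4 WT SD arrays it was 8.79, 7.74, 7.77 and 7.92. On the 4 WT CR arrays it was 6.99, 6.13, 6.29 and 6.03, again without overlap, as for 11.5% of all kept probes. The difference of CR from SD was -1.55 (SE 0.22, a 2.93-fold lower level) in Csb and -1.69 (SE 0.27, 3.23-fold) in WT. Without the 4 arrays low in granule cell markers it was -1.48 and -1.45. In WT the SD and CR arrays did not overlap in highest intensity (50054.2 to 50745.2 against 32704.5 to 35117.9) or in background (65.6 to 68.5 against 54.8 to 62.4). Diet and array brightness therefore cannot be told apart in WT, for any of the 4 genes. With brightness as a term the WT call of Fcrls was lost (limma adjusted p = 0.908). Its WT difference lay between -1.82 and -1.18 over 10 alternative ways of processing, that term among them. In RNA of whole tissue, fewer cells of a type and less RNA per cell cannot be told apart.

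Differences of HFD or Resv from SD were not tested. In mean level of Fcrls the order was WT SD 8.05 ± 0.50 (SD, n = 4), Csb SD 7.86 ± 0.54 (n = 6), Csb HFD 7.84 ± 0.33 (n = 7), WT Resv 7.79 ± 0.48 (n = 5), Csb Resv 7.75 ± 0.14 (n = 6), WT HFD 7.47 ± 0.32 (n = 4), WT CR 6.36 ± 0.43 (n = 4) and Csb CR 6.31 ± 0.34 (n = 6). In that order WT HFD and WT CR were the only neighbours whose arrays did not overlap. The highest of the 10 CR arrays (6.99) lay below the lowest of the 22 HFD and Resv arrays (7.10). Of all 14883 probes, 0.0202% (3 probes) had their 10 CR arrays wholly on 1 side of these 22, and they are Fcrls, Cfl1 and Srsf5, the last of them named after its values were seen. Since the CR arrays chose the members, this is a description.

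Wfdc18 was lower under restriction in both genotypes and was detected on none of the 10 CR arrays. On the Csb SD arrays its level was 6.01 at the lowest, 6.59 at the median and 7.20 at the highest, with 5 of 6 arrays detecting it. On the Csb CR arrays the values were 4.63, 5.00 and 5.47, without overlap, as for 0.376% of all kept probes. On the WT SD arrays it was 7.60, 6.48, 6.59 and 6.45, and on the WT CR arrays 5.77, 5.73, 5.29 and 5.21. WT did not overlap either, as for 11.5% of all kept probes. The fitted difference of CR from SD was -1.64 (SE 0.24) in Csb and -1.28 (SE 0.29) in WT. As CR arrays did not detect the probe, its level there is only bounded. In the group means of these arrays the decrease was at least 1.43-fold in Csb and at least 1.58-fold in WT, with no allowance for the spread between arrays. For this bound each CR array was given the dimmest level of any detected probe on it, or the measured level of Wfdc18 if that was brighter, and the mean was set against the SD mean. Without the 4 arrays low in granule cell markers the fitted differences were -1.34 and -1.01 and the bounds 1.21-fold and 1.31-fold, the WT value then missing the threshold (limma adjusted p = 0.0568). With the brightness of each array as a term, the WT difference was -0.25, the WT SD arrays being the brightest of the diet arm with highest intensities of 50054 to 50745.

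Wfdc18 was also low on WT arrays of the other diets. Its mean level was 6.78 ± 0.55 in WT SD, 6.66 ± 0.47 in Csb SD, 6.62 ± 0.44 in Csb Resv, 6.10 ± 0.47 in Csb HFD, 5.78 ± 0.33 in WT HFD, 5.67 ± 0.51 in WT Resv, 5.50 ± 0.29 in WT CR and 5.02 ± 0.30 in Csb CR (SD, n as above). Every neighbouring pair in this order overlapped. All 9 WT arrays on HFD or Resv lay below the lowest WT SD array (6.12 at the highest against 6.45), as 0.585% of kept probes lay wholly above or below, and the WT SD arrays were the brightest ones. In Csb, 5 of the 6 Csb CR arrays lay below all 13 Csb arrays on those diets, and the share of kept probes for which this holds was not counted.

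Cfl1 lay higher on the restricted arrays of both genotypes and was detected on all 42 diet arrays. On the Csb SD arrays its level was 7.05 at the lowest, 7.44 at the median and 7.70 at the highest, and on the Csb CR arrays 7.77, 8.19 and 8.75. On the WT SD arrays it was 7.47, 7.38, 7.46 and 7.57, and on the WT CR arrays 7.97, 7.63, 7.79 and 8.12. Neither genotype's groups overlapped, as for 0.376% of all kept probes in Csb and 11.5% in WT. The difference was 0.81 (SE 0.16, 1.75-fold higher) in Csb and 0.41 (SE 0.20, 1.33-fold) in WT, and 1.03 and 0.41 without the 4 arrays low in granule cell markers. The WT value was the only one of the 4 members that did not reach an adjusted p under 0.05 in WT. It was 0.59 with array background and 0.80 with array brightness as a term, and it was called in 0 of 10 alternative ways of processing (lowest limma adjusted p = 0.0978). Whether the genotypes differed in it was not tested.

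The mean levels of Cfl1 were 8.22 ± 0.36 in Csb CR, 7.88 ± 0.21 in WT CR, 7.47 ± 0.08 in WT SD, 7.42 ± 0.26 in Csb SD, 7.41 ± 0.15 in Csb Resv, 7.22 ± 0.24 in Csb HFD, 7.13 ± 0.28 in WT Resv and 6.89 ± 0.53 in WT HFD. WT CR and WT SD were the only neighbours without overlap. The lowest CR array (7.63) stood just above the highest of the 22 HFD and Resv arrays (7.62). The WT HFD arrays spread most widely, at 6.36, 7.54, 7.09 and 6.56.

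Acat1 lay higher on the restricted arrays of both genotypes, at a low level that most other arrays did not detect. It was detected on 10 of 42 diet arrays, namely 5 of 6 Csb CR, all 4 WT CR and 1 WT SD array, so it passed the filter on dim probes through the CR arrays and had to differ there. On the Csb SD arrays its level was 5.44 at the lowest, 5.81 at the median and 5.98 at the highest, and on the Csb CR arrays 6.08, 6.35 and 6.66. On the WT SD arrays it was 5.49, 5.79, 5.17 and 5.28, and on the WT CR arrays 6.23, 6.30, 6.29 and 6.03. All 10 CR arrays lay above all 10 SD arrays. Across both genotypes 0.0336% of kept probes (5 probes) separated CR from SD completely, namely Acat1, Fcrls, Wfdc18, Rab6a and Rbm3, the last 2 named after their values were seen. The fitted difference was 0.58 (SE 0.12) in Csb and 0.78 (SE 0.15) in WT, where only 1 of 4 SD arrays detected the probe, so that its size is not exact. No Csb SD array detected it, and in the group means, bounded as for Wfdc18, the rise in Csb was at least 1.18-fold. Without the 4 arrays low in granule cell markers the differences were 0.71 and 0.80, and the Csb bound was 1.20-fold. With array brightness as a term, which cannot be told apart from diet in WT, the WT call was lost (limma adjusted p = 0.908). The WT difference lay between 0.39 and 1.00 over 10 alternative ways of processing, that term among them.

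The measured mean of Acat1 was larger in Csb than in WT within each diet, mostly on arrays that did not detect it. The group means were 6.36 ± 0.24 in Csb CR, 6.21 ± 0.12 in WT CR, 5.82 ± 0.27 in Csb Resv, 5.78 ± 0.19 in Csb SD, 5.63 ± 0.23 in Csb HFD, 5.43 ± 0.27 in WT SD, 5.19 ± 0.07 in WT Resv and 4.93 ± 0.18 in WT HFD. The 2 lowest groups were the only neighbours that did not overlap, and neither detected the probe.

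**Figure D1:**
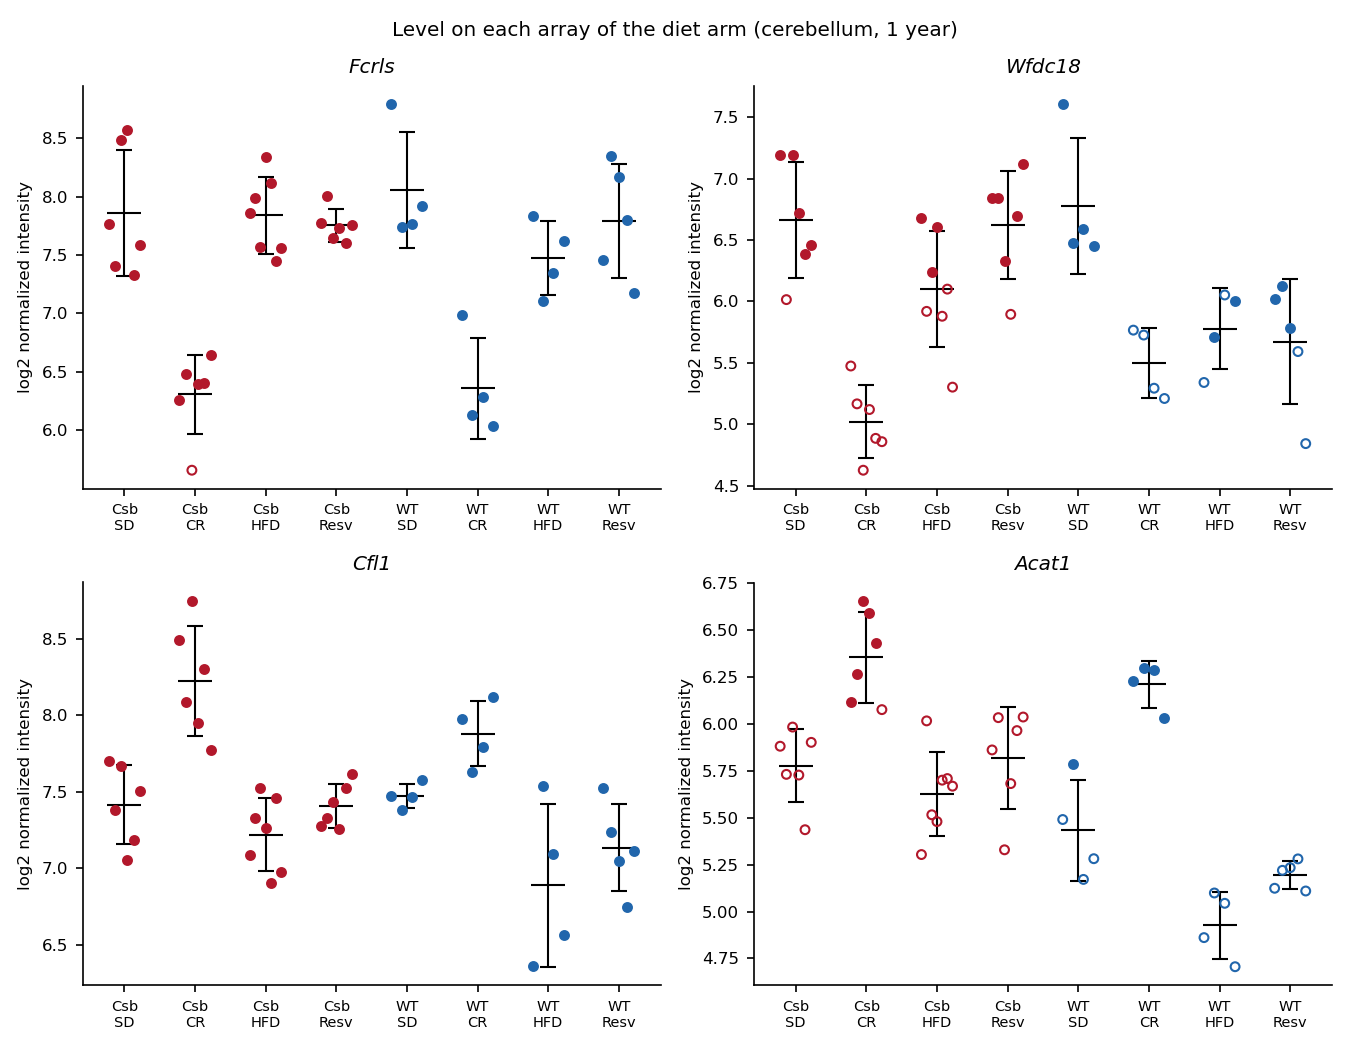
Log2 normalized intensity (vertical axis) of the 4 genes on each array of the 8 diet groups, red for Csb and blue for WT, filled where the array detected the probe and open where it did not, with the group mean and SD as bars. For Fcrls the 10 CR arrays (at most 6.99) lie below all others, and for Acat1 filled points are almost confined to the CR groups, with 1 in WT SD.

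Each vertical axis in the plot of levels by diet has its own range, so heights compare groups of 1 gene and not genes. The members sat at the low end of the array. Their mean level over the diet arrays was at the 34th percentile of kept probes for Fcrls and Cfl1, the 12th for Wfdc18 and the 6th for Acat1. The pooled SD within groups was 0.43 for Wfdc18, 0.40 for Fcrls, 0.29 for Cfl1 and 0.21 for Acat1, against a median of 0.25 over all kept probes.

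In Csb, 0.0873% of kept probes were called for restriction (0.0134% higher and 0.0739% lower), all 4 members among them by choice, and in WT 2.18% were called, 3 members among them. Nothing is read from these counts, because the choice used both contrasts. At the threshold in Csb, Acat1 was the called probe with the highest adjusted p (0.0425), and the first probe outside was Slc4a1, the anion exchanger of red blood cells (2.07, SE 0.47, adjusted p = 0.0645). The other 9 called probes were all lower. They read Upp2 (3 probes, uridine phosphorylase 2), Gpnmb, Erich6, Ccdc159, C1qb, Cideb and Oxct1, all named after their values were seen. C1qb, a chain of complement C1q made by microglia, was 0.56 lower in Csb and 0.53 lower in WT on the log2 scale. Oxct1, the enzyme that activates ketone bodies one step before Acat1 acts, was 0.32 and 0.25 lower, in the opposite direction to Acat1.

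**Figure D2:**
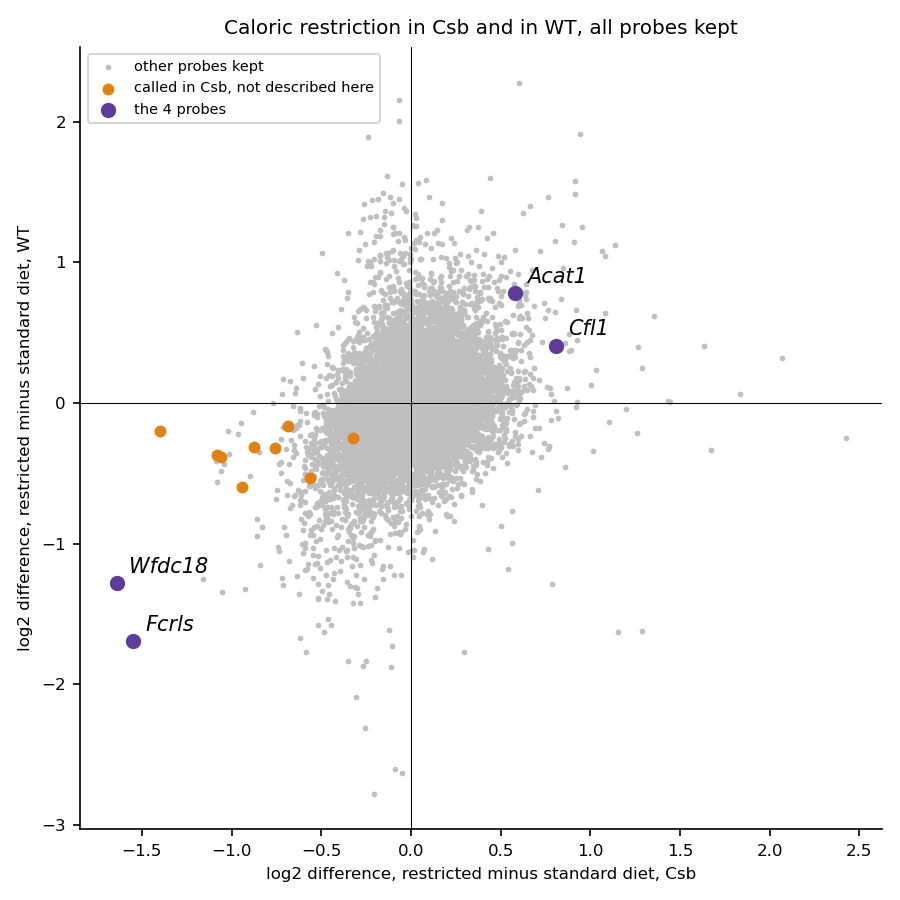
Log2 difference of restricted from standard diet in Csb (horizontal axis) and in WT (vertical axis) for the 14883 probes kept, with the 9 other probes called in Csb in orange and the 4 described here in purple. Fcrls (-1.55 and -1.69) and Wfdc18 (-1.64 and -1.28) lie at the lower left edge, and Cfl1 and Acat1 lie to the upper right.

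Lists of related genes showed what else differed between the same restricted and standard-diet arrays, and none of their members was called in either genotype over all arrays. Of 8 genes tied to glucocorticoids or restriction, 8 were below 0 in Csb (median -0.28) and 6 in WT (median -0.18), with the medians over all probes at 0.0026 and -0.0007. Sgk1, a kinase induced by glucocorticoids, differed by -0.74 (SE 0.26) in Csb and -1.02 (SE 0.32) in WT. Without the 4 arrays low in granule cell markers the list medians were -0.26 and -0.47, and Sgk1 was the only list member called (-1.28 in WT, limma adjusted p = 0.0177). Of 8 chaperones of the endoplasmic reticulum, 6 were kept, and 4 of them were above 0 in each genotype (medians 0.24 and 0.04). Without those arrays 6 were above 0 in Csb and 1 in WT (medians 0.31 and -0.07).

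Other microglial transcripts differed less than Fcrls in value. Of the 4 microglia markers, Csf1r had no probe and the other 3 were detected on all 42 diet arrays. Cx3cr1, the fractalkine receptor, differed by -0.13 (SE 0.21) in Csb and 0.03 (SE 0.26) in WT. C1qa differed by -0.35 (SE 0.13) and -0.25 (SE 0.16), and Aif1 by -0.28 (SE 0.18) and -0.45 (SE 0.22), and none was called. Without the 4 arrays low in granule cell markers all 3 were below 0 in both genotypes (medians -0.30 and -0.20). The mean of the 3 was 9.03 to 9.29 on Csb SD, 8.72 to 9.11 on Csb CR, 8.59 to 8.85 on WT SD and 8.22 to 8.75 on WT CR arrays. Their part in the Fcrls difference was not tested.

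Markers of other cell types also differed in value, and none was called. All 4 granule cell markers were above 0 in both genotypes (medians 0.73 in Csb and 1.33 in WT), and so were all 4 choroid plexus markers (medians 0.66 and 0.38). Of the Purkinje cell markers only Pcp2 was kept (0.60 and 2.28), and Calb1 was detected on 0 arrays. Of 4 astrocyte and Bergmann glia markers 2 were above 0 in Csb and 3 in WT, and of 3 oligodendrocyte markers 2 and 1. Without the 4 arrays low in granule cell markers the granule cell medians were 0.31 and 0.54 and Pcp2 differed by 0.0055 and 0.40. The choroid plexus medians were then 0.69 in Csb and -0.32 in WT, where 1 of 4 was above 0. Their part in the differences of the 4 members was not tested beyond the values given without the 4 arrays low in granule cell markers.

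On the high-fat diet the measured level of Acat1 differed between the genotypes by the test, and the other 3 genes did not pass it. The Csb HFD arrays lay at 5.30 at the lowest, 5.67 at the median and 6.02 at the highest, and the WT HFD arrays at 4.86, 5.10, 5.04 and 4.71. None of the 22 HFD and Resv arrays detected the probe, which entered the fit through the CR arrays, so no fold is given and the size is not exact. As both groups lay below detection, on arrays that also differed in background, the test cannot decide a genotype difference in the transcript. The difference was 0.70 (SE 0.13, limma adjusted p = 0.00167). With 1 of 4 members called, the share over all kept probes was 10.6%. The differences of Csb from WT were 0.33 (SE 0.26, adjusted p = 0.438) for Wfdc18, 0.37 (SE 0.20, adjusted p = 0.235) for Fcrls and 0.33 (SE 0.18, adjusted p = 0.237) for Cfl1. Without WT HFD replicate 2, the highest array of its group for Cfl1, that gene passed as well (0.55, adjusted p = 0.0292).

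With resveratrol, 2 of 4 members passed the test with a larger value in Csb than in WT, against 21.4% of kept probes called. Wfdc18 lay at 5.90 at the lowest, 6.77 at the median and 7.12 at the highest on the 6 Csb Resv arrays, 5 of which detected it. On the 5 WT Resv arrays it lay at 6.02, 6.12, 5.78, 5.59 and 4.84, 3 of which detected it. The groups overlapped, and the difference was 0.95 (SE 0.25, 1.93-fold higher, limma adjusted p = 0.0106). Acat1 lay between 5.33 and 6.04 on the Csb arrays and between 5.11 and 5.28 on the WT arrays, and the difference was 0.62 (SE 0.13, limma adjusted p = 0.00191). No array of either group detected Acat1, so no fold is given, the size is not exact and, as on HFD, the test cannot decide a difference in the transcript. Fcrls (-0.04, SE 0.19, adjusted p = 0.901) and Cfl1 (0.27, SE 0.17, adjusted p = 0.260) did not pass.

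The background intensity of the arrays moved with these genotype differences. It was the median intensity of undetected probes, and its group mean was 71.6 in Csb HFD against 58.9 in WT HFD (ranges 68.3 to 74.4 and 56.9 to 60.5). It was 66.1 in Csb Resv against 58.9 in WT Resv. With background as a term in the model, no member was called for genotype on either diet. Acat1 then differed by 0.48 (adjusted p = 0.755) on HFD and 0.50 (adjusted p = 0.152) with Resv, and Wfdc18 by 0.26 (adjusted p = 0.702) with Resv. Since the groups do not overlap in background on either diet, that term and genotype cannot be told apart.

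No member passed the test between high-fat diet and resveratrol. In Csb the largest difference was that of Wfdc18 (HFD minus Resv -0.52, 95% confidence interval -0.997 to -0.04, unadjusted p = 0.0349, limma adjusted p = 0.909), with 0.00672% of kept probes called. In WT and in the interaction of genotype with these diets limma called 0 members and 0.00% of kept probes, and 0 members had an unadjusted p under 0.05. The interval for Fcrls was -0.27 to 0.45 in Csb and -0.75 to 0.12 in WT. For Cfl1 it was -0.51 to 0.14 and -0.64 to 0.15, and for Acat1 -0.43 to 0.05 and -0.56 to 0.03. For Wfdc18 in WT it was -0.47 to 0.68. Differences within these intervals are compatible with the values of these arrays.

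The injection arm, which was normalized separately and so is not set level against level with the diet arm, gave a reference without any change of diet. Limma called none of the 4 members for any difference among its 8 groups, against 10.5% of its 13948 kept probes. The adjusted p was 0.0826 for Fcrls, 0.104 for Acat1, 0.136 for Wfdc18 and 0.271 for Cfl1, and 3 of the 4 had an unadjusted p under 0.05. Fcrls passed without Csb young NR replicate 2 (adjusted p = 0.0215) or without WT young NR replicate 4 (adjusted p = 0.0475). Wfdc18 passed without WT old NR replicate 1 (adjusted p = 0.0207).

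Fcrls was higher in Csb than in WT over the injection arm. Its group means were 7.77 ± 0.16 in Csb old saline (n = 3), 7.29 ± 0.19 in Csb old NR (n = 4), 7.15 ± 0.44 in Csb young saline (n = 3) and 6.97 ± 0.93 in Csb young NR (n = 3). All 4 WT means were lower, at 6.75 ± 0.52 in old NR (n = 5), 6.67 ± 0.64 in old saline (n = 3), 6.66 ± 0.53 in young NR (n = 4) and 6.28 ± 0.41 in young saline (n = 4). The 2 highest groups were the only neighbours without overlap, and single arrays of the genotypes overlapped, with Csb young NR replicate 2 at 5.91. The difference averaged over age and injection was 0.71 (SE 0.18, 1.63-fold higher, limma adjusted p = 0.0492), 1 of 4 members called against 1.12% of kept probes. It sat at the threshold, since leaving out 1 array ended the call for 21 of the 29 arrays (adjusted p up to 0.146), while it was 0.00226 without Csb young NR replicate 2. Keeping dim probes in the fit also ended it (adjusted p = 0.116), as did entering array background as a term (difference 0.75, adjusted p = 0.0504). The mean of the 3 microglia markers was also higher in the Csb groups (8.22 to 8.55) than in the WT groups (7.69 to 8.13), and its part in the difference was not tested.

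The other 3 genes had differences of Csb from WT of 0.44 (SE 0.17) for Wfdc18, 0.45 (SE 0.18) for Cfl1 and 0.28 (SE 0.11) for Acat1, with adjusted p-values of 0.390, 0.408 and 0.393. Wfdc18 was detected on 11 of 29 arrays, 8 of them Csb. Its highest mean was 6.23 ± 0.34 in Csb old saline and its lowest 4.90 ± 0.60 in WT old NR, and every neighbouring pair of groups in between overlapped.

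The highest Cfl1 and the highest Acat1 level in this arm stood on the same array. In Csb old saline Cfl1 was 6.91, 7.20 and 9.28, and Acat1 was 5.44, 5.48 and 6.57, replicate 3 being the highest array of the arm for both. Without it the group mean was 7.06 for Cfl1 and 5.46 for Acat1. Replicate 3 had the lowest microglia marker mean of the group (7.30 against 9.15 and 9.21), while its Fcrls (7.60) stood with the other 2. The remaining Cfl1 means lay between 6.56 ± 0.55 (WT old NR) and 7.27 ± 0.32 (Csb old NR), all neighbours overlapping.

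The measured level of Acat1 differed between old and young mice by 0.32 (SE 0.11, limma adjusted p = 0.0428), 1 of 4 members called for age against 23.2% of kept probes. The probe was detected on 3 of 29 arrays, all from old mice (1 each in Csb old saline, Csb old NR and WT old NR), so the size of the difference is not exact. Acat1 met the filter's minimum of 3 arrays only through the old groups, which favours a higher level there, so the test cannot decide a difference with age. Its means were 5.83 ± 0.64 (Csb old saline), 5.42 ± 0.26 (WT old NR), 5.34 ± 0.35 (Csb old NR), 5.32 ± 0.25 (Csb young saline), 5.25 ± 0.11 (Csb young NR), 5.23 ± 0.15 (WT old saline), 5.12 ± 0.29 (WT young saline) and 4.85 ± 0.16 (WT young NR), all neighbours overlapping. Without Csb old saline replicate 3 the difference was 0.22 (adjusted p = 0.0870), and the call was lost in 19 of 29 fits that left out 1 array. It was also lost under 6 of 8 other settings, with adjusted p-values up to 0.243 (brightness of each array as a term). For age Fcrls differed by 0.36 (SE 0.18, adjusted p = 0.151), Cfl1 by 0.14 (SE 0.18, adjusted p = 0.608) and Wfdc18 by -0.06 (SE 0.17, adjusted p = 0.825).

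Nicotinamide riboside called none of the 4 members by limma, against 0.0287% of kept probes, and 1 had an unadjusted p under 0.05. That was Wfdc18, which differed from saline by -0.42 (SE 0.17, unadjusted p = 0.0218, adjusted p = 0.9999). The 95% confidence intervals were -0.42 to 0.32 for Fcrls, -0.61 to 0.15 for Cfl1 and -0.39 to 0.07 for Acat1.

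**Figure D3:**
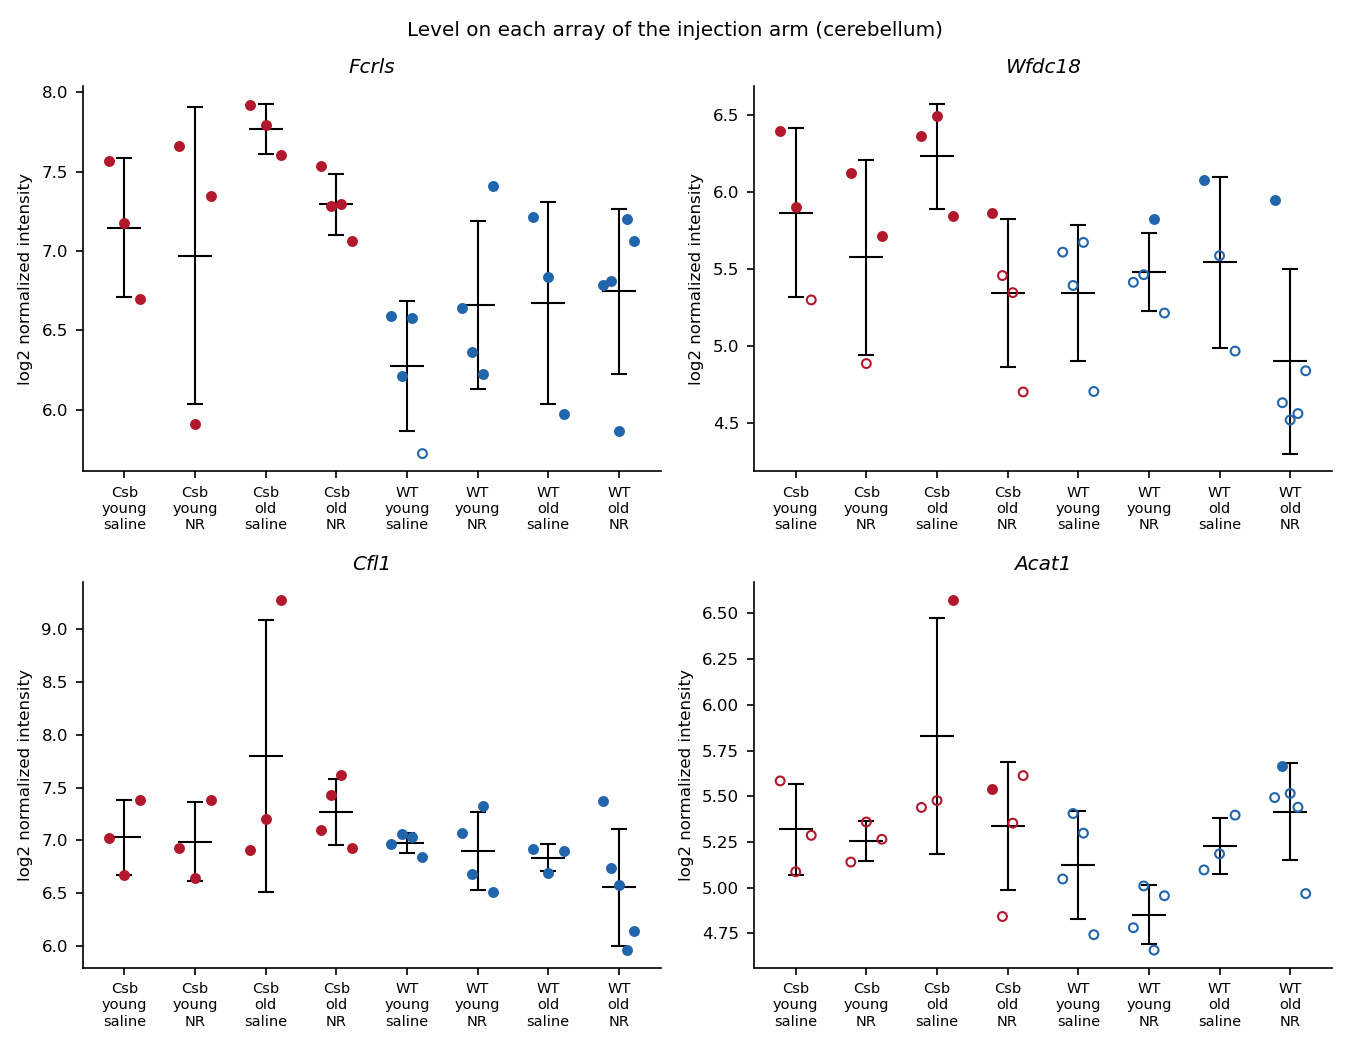
Log2 normalized intensity (vertical axis) of the 4 genes on each array of the 8 injection groups, red for Csb and blue for WT, filled where the array detected the probe and open where it did not, with the group mean and SD as bars. The Csb old saline array at 9.28 for Cfl1 is also the highest for Acat1 (6.57), and the Csb means of Fcrls lie above all WT means.

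**Figure D4:**
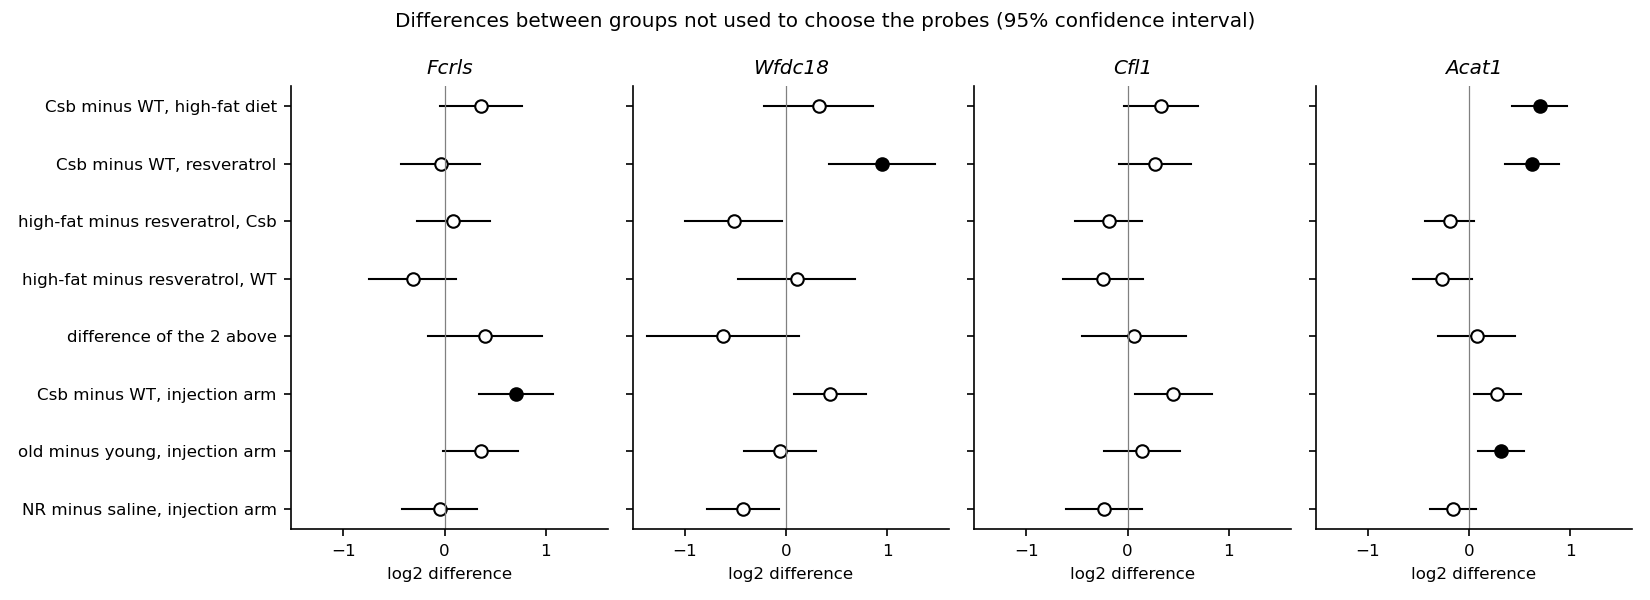
Log2 difference (horizontal axis) with its 95% confidence interval for each gene in the 8 comparisons that did not use the restricted or standard-diet arrays, filled where the limma adjusted p was under 0.05. Filled points are Acat1 for genotype on both diets (0.70 and 0.62) and for age (0.32), Wfdc18 for genotype with resveratrol (0.95) and Fcrls for genotype in the injection arm (0.71).

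The plot of differences shows that 5 of the 32 values passed, all of them above 0. Those of Acat1 came from a probe that passed the filter on dim probes through the CR arrays or, for age, through the old arrays.

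Covariation between arrays of the same group was taken on deviations from group means, separately over the 29 injection arrays and the 22 HFD and Resv arrays, with two-sided permutation tests that kept arrays within their groups. Among the 6 pairs of members in each set, 0 of 12 had an adjusted p under 0.05. The highest correlation in the injection arm was that of Fcrls with Wfdc18 (r = 0.576, rho = 0.593, permutation p = 0.0107, adjusted p = 0.128). It was 0.562 without the 2 arrays farthest from the median, and 0.373 over the HFD and Resv arrays (adjusted p = 0.395).

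Both genes that were lower under restriction followed the microglia markers from array to array in the injection arm, a relation examined after the data were seen. For Wfdc18, r was 0.736 and rho 0.797, and for Fcrls r was 0.696 and rho 0.723, each with a permutation p of 3e-05 (adjusted p = 0.00012 over 8 relations). Without the 2 arrays farthest from the median, r was 0.660 and 0.528. Wfdc18 was detected on only 11 of the 29 injection arrays and Fcrls on 28, so most Wfdc18 values behind its r lay below detection. Over the 22 HFD and Resv arrays neither passed (r = 0.303, adjusted p = 0.290 for Wfdc18 and r = 0.472, adjusted p = 0.148 for Fcrls), and the difference between the sets was not tested. Cfl1 (r = -0.391, adjusted p = 0.385) and Acat1 (r = -0.522, adjusted p = 0.148) did not pass in the injection arm.

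**Figure D5:**
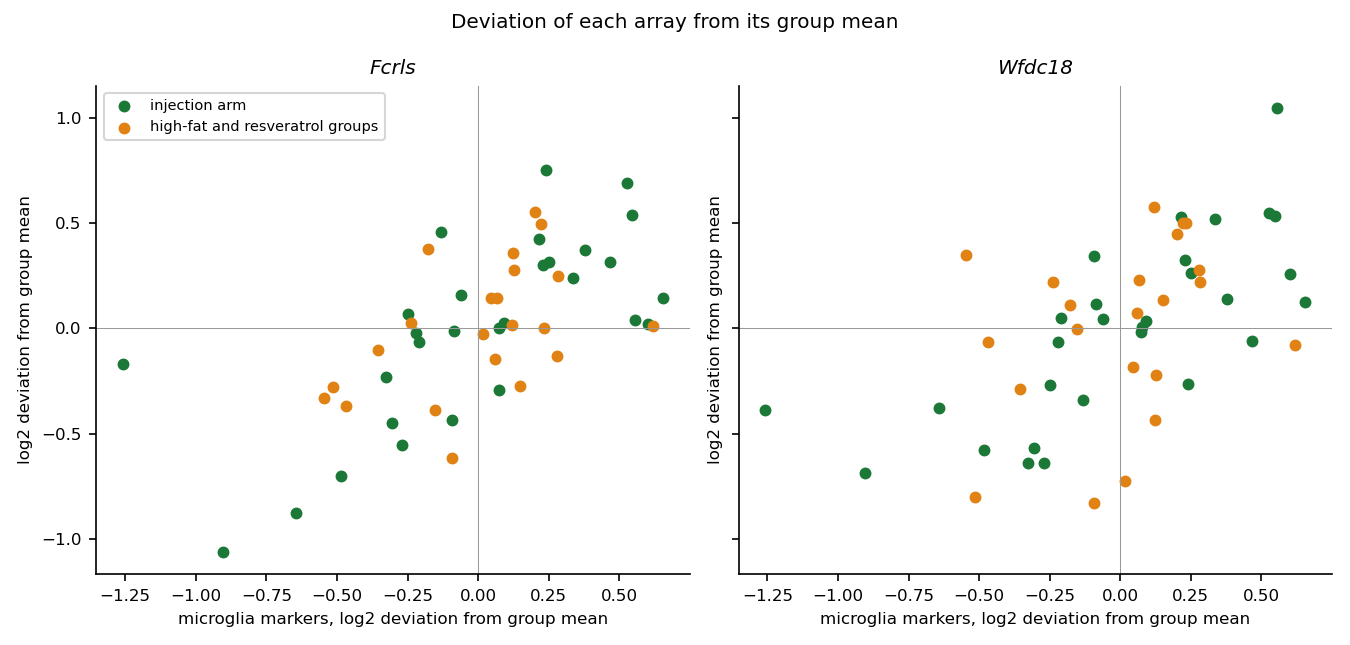
Deviation of each array from its group mean, on a log2 scale, for the mean of 3 microglia markers (horizontal axis) and for Fcrls or Wfdc18 (vertical axis), green for the 29 injection arrays and orange for the 22 high-fat and resveratrol arrays. The green points rise together (r = 0.696 for Fcrls and 0.736 for Wfdc18), with the orange points more scattered. Wfdc18 was detected on 11 of the 29 injection arrays.

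Outside the 4 members, the kept probe most like each over the 42 diet arrays was chosen by the highest Pearson correlation, as a description of arrays that share their diets. It was Klk8, a secreted serine protease, for Fcrls (r = 0.801), Olfml3, an olfactomedin-like secreted protein, for Wfdc18 (r = 0.751), Nans, the sialic acid synthase, for Cfl1 (r = 0.676) and Gm11437 for Acat1 (r = 0.798). Over the 29 injection arrays the same pairs gave 0.402, 0.448, 0.581 and 0.053. Gm11437 did not pass the filter on dim probes there.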

How the data were processed

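Cerebellum RNA of 71 samples was read on Illumina MouseRef-8 v2 bead arrays. The deposited table holds for each probe an average intensity on a linear scale, not normalized per the file headers, and a detection p-value per the file headers. The deposited series matrix holds a score, which equalled the z-score of each array's log intensities (largest gap 5.0e-10). The submitters' processing notes name GenomeStudio 1.9.0, and any further step was not given in the sources used here. Groups follow the labels, with every sample's column used.

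In R 4.3.3 with limma 3.58.1, neqc corrected the background, normalized by quantiles and took log2 with an offset of 16, separately for each arm. Probes with a detection p under 0.01 on at least 4 (diet) or 3 (injection) arrays were kept, 14883 and 13948. Tests of genotype and diet used the 22 HFD and Resv arrays, injection tests all 29 arrays and the restriction differences all 8 diet groups (lmFit, eBayes), with Benjamini-Hochberg adjustment over all kept probes. The authors' p-value columns served only as the detection filter. Named probes are the 4 members, the nearest on each side of the threshold, the most correlated non-member of each and fixed gene lists. The other 9 probes called for restriction in Csb, and Srsf5, Rab6a and Rbm3, were named after their values were seen. The members and lists were chosen with earlier results of these data known. Scripts were tested on simulated data. Alternatives were other background correction, scaling, filter, source, weights, covariates, a replicate block and leaving out arrays. No batch was entered, because the sources used here name no chip or scan. The number of arrays limits the precision.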

Additional observations from a re-analysis of the deposited data

Results flagged for a closer look

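Of 48 groups of 4 to 7 arrays examined over the 4 genes, 3 held an array far from the rest of its group, by Dixon's test at the 95% level, where chance gives about 1 in 20. WT SD replicate 1 was high for Wfdc18 (7.60, the next array at 6.59) and for Fcrls (8.79, the next at 7.92), and it is 1 of the 4 arrays low in granule cell markers. Without that array the WT difference of restricted from standard diet was -1.01 for Wfdc18 and -1.45 for Fcrls. WT old NR replicate 1 was high for Wfdc18 (5.95, the next array at 4.84).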

How the results depend on the processing

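The restricted and standard-diet arrays chose the members, so signs and calls kept on them describe the choice and are no test of it. All 4 members kept the sign of their restriction difference in both genotypes in all 10 alternatives and whenever 1 array was left out. Their restriction calls did not all hold. In Csb, Acat1 lost its call in 6 of 10 alternatives (the fit of the 2 groups alone among them) and 7 of 12 fits without 1 array, Cfl1 in 2 and 5, Fcrls in 1 and 0 and Wfdc18 in 0 and 0. In WT, Wfdc18 lost it in 4 of 10 and 1 of 8, and Fcrls and Acat1 each in 1 (adjusted p = 0.908, brightness term) and 0. The number of all probes called ran from 2 (fit of the 2 groups alone) to 84 (array weights) in Csb and from 45 (brightness term) to 1106 (no filter) in WT. Genotype on HFD gave 0 called members and genotype with Resv 0 with the background term, and 1 to 2 and 2 to 2 when 1 array was left out. In the injection arm genotype gave 0 without a filter and with the background term, and 2 with array weights. Age gave 0 without background correction, with z-scores, without a filter, with the authors' scores and with the background or brightness term, and 2 with array weights. The test of any difference among the 8 groups gave 3 with array weights. Leaving out 1 array gave 0 to 1 in these 3. Signs turned only in values that were not called. For Fcrls and genotype with Resv they became 0.030 (z-scores), 0.058 (authors' scores), 0.10 (brightness) and -0.19 to 0.10 (1 array left out). On HFD Wfdc18 became -0.91 (background) and -0.040 (brightness) and Cfl1 -0.13 (background). In the interaction Cfl1 became -0.15 (background) and -0.18 (brightness), ranging from -0.12 to 0.28 with 1 array left out, and Acat1 -0.023 (background), ranging from -0.022 to 0.13. HFD minus Resv in WT ranged from -0.10 to 0.25 for Wfdc18. For age Cfl1 became -0.19 (array weights; -0.043 to 0.25 with 1 array left out), Wfdc18 0.18 (brightness; -0.15 to 0.010) and Fcrls -0.0067 (brightness), and for NR Fcrls ranged from -0.14 to 0.083. Without the 2 farthest arrays, Wfdc18 with Cfl1 (injection) became -0.18 and Fcrls with Acat1 (HFD and Resv) -0.022. The cause was not tested. Arrays with the same number in their titles did not deviate together (median r 0.0038 and 0.029, with 41 of 128 and 35 of 90 pairs over 0.1). Some sample names carry other numbers than the titles, and pairing by those was not tested. With the replicate block, which used the title numbers, the count of called members changed in no test. Fcrls for genotype with Resv then became 0.0045, and Acat1 lost its restriction call in Csb (limma adjusted p = 0.0588).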
